A study of Mus musculus with 2 samples.

Results

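Ribosomal protein (RP) genes encode the proteins that, together with ribosomal RNA, build the cytoplasmic ribosome. The genes were taken by symbol alone (Rpl or Rps followed by a number and the usual suffixes, Rplp0, Rplp1, Rplp2 and Rpsa), which matched 82 of the 19320 features of the table, 50 of the large subunit and 32 of the small subunit. The rule used no measured value. It does not take in Fau and Rpl36al, which also encode ribosomal proteins, nor pseudogene features whose symbols carry "-ps". The symbols of the paralogues Rpl10l, Rpl39l and Rps4l would fit the rule, but they were not among the features it matched.

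The data are droplet-based 3' single-cell RNA-seq of prostate tissue with 1 library of prostatic intraepithelial neoplasia (PIN) from mice 6 months old and 1 library of prostatic adenocarcinoma (PCa) from mice 12 months old. Both tissues came from mice of genotype R26 mTmG/hAR:Osr1 Cre/+, in which Cre made by Osr1-expressing cells switches on a human androgen receptor transgene (hARtg) and a membrane green fluorescent protein (mGFP) in those cells and all their descendants, so that every group carried both alleles and the driver. The number of mice behind each library is not given in the sources used here. Cell barcodes carried 1 of 2 endings, here called set 1 and set 2. The labels do not tie an ending to a tissue, so no cell was assigned to PIN or PCa. With 1 library a group there was no replicate and no test, and cells are not replicates of a condition. The exact 95% intervals given below (Clopper-Pearson for shares, conditional binomial for ratios) cover counting error only.

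Ribosomes read messenger RNA into protein, and each ribosome needs about equal numbers of most of its proteins, so the genes are transcribed and translated as a coordinated group. Many of their mRNAs begin with an uninterrupted stretch of pyrimidines (C and T), the terminal oligopyrimidine or TOP motif, through which mTOR signalling controls their translation, and Myc and RNA polymerase I drive the making of ribosomes in growing cells. In the prostate, luminal cells secrete the proteins of the prostatic fluid, while basal cells lie beneath them along the basement membrane.

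The letters around the annotated start were searched for runs of C and T. Promoter entries from RefSeq (build GRCm38.p6) were held for 61 of the 82 genes. The window reached from 30 bases before to 30 bases after the start, on the strand that reads as the mRNA. A run of at least 8 C or T stood there in 34 of the 61 genes (55.7%), against 25.8% of all 27025 genes with an entry. Where a gene had several entries, the longest run was taken. A run could also lie wholly before the annotated start, outside the mRNA, so the count is not one of TOP motifs. The following 30-base windows reach from 15 bases before the start to 14 bases after its first base, in the 5' to 3' direction of the gene, with the longest run of C or T in capitals where it had 6 or more letters. Rpl14, Rps6, Rpl38 and Rps18 are shown as genes with a run at the start, and the paralogues Rpl22l1 and Rpl7l1 because they stood lowest in the comparison of the sets.

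Rpl14 (chr9:120571502-120571531, plus strand): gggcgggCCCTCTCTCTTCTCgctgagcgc
Rps6 (chr4:86857353-86857382, minus strand): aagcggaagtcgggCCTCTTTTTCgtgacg
Rpl38 (chr11:114668565-114668594, plus strand): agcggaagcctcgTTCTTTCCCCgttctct
Rps18 (chr17:33955651-33955680, minus strand): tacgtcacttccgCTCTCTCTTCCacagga
Rpl22l1 (chr3:28805493-28805522, plus strand): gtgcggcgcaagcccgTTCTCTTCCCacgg
Rpl7l1 (chr17:46782642-46782671, minus strand): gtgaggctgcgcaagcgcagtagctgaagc

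Rpl14 had a run of 14 letters, and Rpl22l1 had one of 10. Rpl7l1, a paralogue of Rpl7, had no run over 2 letters in its window. The motif CGGAAG, searched on both strands of the full 300 bases, stood in 41 of the 61 promoters (67.2%), in 18.8% of all entries and in 38.2% of the 2126 other genes with at least 50 CPM. UMIs (unique molecular identifiers) mark single captured RNA molecules, and CPM is a gene's UMI count over the summed cells after scaling their total to 1000000. Annotated starts can lie some bases off the true start, so a missing run says only that the letters are not in the window.

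Over all 15742 cells the RP genes held 17.4% of 322130464 UMIs, 12.5% in set 1 (6332 cells, median 17235 UMIs a cell) and 20.9% in set 2 (9410 cells, median 14824.5 UMIs). UMIs per cell ran from 1722 to 89183, and 67 barcodes occurred in both sets. After called doublets were left out, 6177 and 9235 cells remained, and these were placed in classes by marker genes. All of a class's own markers reached 5 CPM in the luminal-like and basal-like cells of each set. The cells had been chosen by those markers, so this outcome does not check the classes. All 6 luminal markers also reached 5 CPM among basal-like cells, with sums of 3698 CPM (set 1) and 3971 CPM (set 2). Among luminal-like cells these sums were 16275 and 18189 CPM. Of the 7 basal markers, 6 reached 5 CPM among luminal-like cells of set 1, and 4 among those of set 2. The part of these markers in the comparisons of both classes was not tested. Classes are named "-like" because they rest on marker genes alone.

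Among the remaining cells 81 of the 82 genes reached 50 CPM, with a median level of 1920 CPM per gene. The exception was Rpl3l, the muscle paralogue of Rpl3, at 0.0383 CPM. Among the highest levels, not scaled by gene length since 3' libraries tag 1 end of each molecule, were those of Rps4x (5331 CPM), of the small subunit, of Rplp0 (5263 CPM), the base of the large subunit's stalk, and of Rps3a1 (4824 CPM) and Rpl13 (4662 CPM). The 5 genes with the highest levels held 14.7% of the RP UMIs together, so no gene dominated the total. The genes lie on 19 chromosomes. Pseudogene copies are numerous in this family, and how reads were divided among near-identical copies is not given in the sources used here, so the level of a single gene is less certain than the total.

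The RP share of the UMIs differed between classes and, in luminal-like cells, between the sets. In set 1, RP genes held 11.4% of the UMIs of luminal-like cells (3215 cells), 16.8% of basal-like cells (1284 cells) and 18.1% of lymphoid-like cells (733 cells). Fibroblast-like cells of set 1 held 11.6% (141 cells) and myeloid-like cells 11.1% (60 cells). Luminal-like cells thus lay at the level of the stromal and myeloid classes, below the basal-like and lymphoid-like cells.

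In set 2 the order was another one. Luminal-like cells held 21.3% (8068 cells), the highest share of a class with at least 50 cells, and basal-like cells held 18.9% (147 cells). Fibroblast-like cells held 13.4% (227 cells), endothelial-like cells 10.9% (153 cells) and myeloid-like cells 8.72% (210 cells). The 20 lymphoid-like cells of set 2 were too few for a comparison, and cells that met no gate held 16% and 17.2%.

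**Figure D1:**
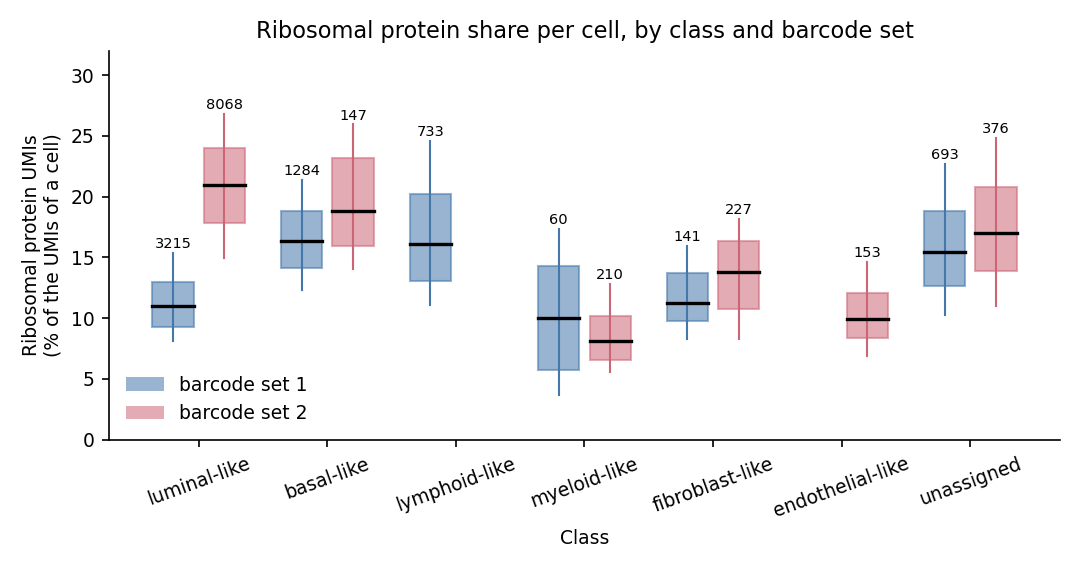
Share of a cell's UMIs in the 82 RP genes (percent, y axis) by class (x axis) and barcode set (colour). Boxes span the quartiles over cells, black lines are medians, thin lines reach from the 10th to the 90th percentile and the numbers count cells. The luminal-like medians stood at 11.0% in set 1 and 21.0% in set 2, and their quartile boxes did not overlap.

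Single luminal-like cells spread far more than counting allows. The SD between cells was 3.2 percentage points in set 1 and 4.75 in set 2, where counting error alone would give 0.220 and 0.353. The quartiles were 9.28 and 13.0% for set 1, and 17.9 and 24.02% for set 2. The boxes of the luminal-like cells were therefore apart, although the 90th percentile of set 1 (15.4%) and the 10th of set 2 (14.97%) met. For the basal-like cells the quartiles overlapped, with 14.1 and 18.8% for set 1 against 15.9 and 23.2% for set 2.

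Between the sets the RP share of luminal-like cells was 1.86-fold higher in set 2, a log2 ratio of 0.90 (interval 0.90 to 0.90). A share can differ through its numerator or through the rest of the cell's RNA. The median luminal-like cell held 3088 RP UMIs and 25274 other UMIs in set 1, against 3367 RP UMIs and 13213 other UMIs in set 2. Droplet capture and sequencing depth also set these counts, and their part was not tested. Binned by total UMIs alone, luminal-like cells with 10000 to 20000 UMIs held 12.04% in set 1 (574 cells) and 20.7% in set 2 (2836 cells). Their median RP counts were 1818 and 2873.5 UMIs. Those with 20000 to 40000 UMIs held 11.0% (1595 cells) and 20.4% (2269 cells), with 3006 and 5569 RP UMIs. Markers of basal cells moved with the set too, with 7 markers summing to 1294 CPM in the luminal-like cells of set 1 and to 67.3 CPM in those of set 2, and their part in the result was not tested.

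The other classes moved less. The log2 ratio of set 2 over set 1 was 0.17 (0.16 to 0.18) in basal-like cells and 0.21 (0.20 to 0.22) in fibroblast-like cells. In myeloid-like cells it was -0.34 (-0.36 to -0.33). Markers of other classes moved with these too. The 6 fibroblast markers summed to 2773 CPM in basal-like cells of set 1 and 1336 CPM in set 2. Only 1 of the 6 reached 5 CPM there in each set, so the sum speaks for 1 gene and not for the list. Mural markers summed to 2386 and 886 CPM in fibroblast-like cells. The part of these markers in the results was not tested. The smaller side of these pairs held 147, 141 and 60 cells, so that single cells weigh more there than in the luminal-like cells.

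Gene by gene, 65 of the 81 RP genes that passed 50 CPM were higher by over 1.5-fold in luminal-like cells of set 2 than of set 1, and none was lower by that much. Of all 3296 features with at least 50 CPM on either side, 19.2% were higher and 29.9% lower by over 1.5-fold. The median log2 ratio of the RP genes was 0.87, beside -0.15 for all features, and 80 of the 81 lay above 0. In basal-like cells 2 of 81 were higher and none lower, where 6.6% of all features were higher and 10.8% lower, and the median was 0.15 beside 0.01 for all features. The medians of the fibroblast-like and myeloid-like cells were 0.19 and -0.34.

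**Figure D2:**
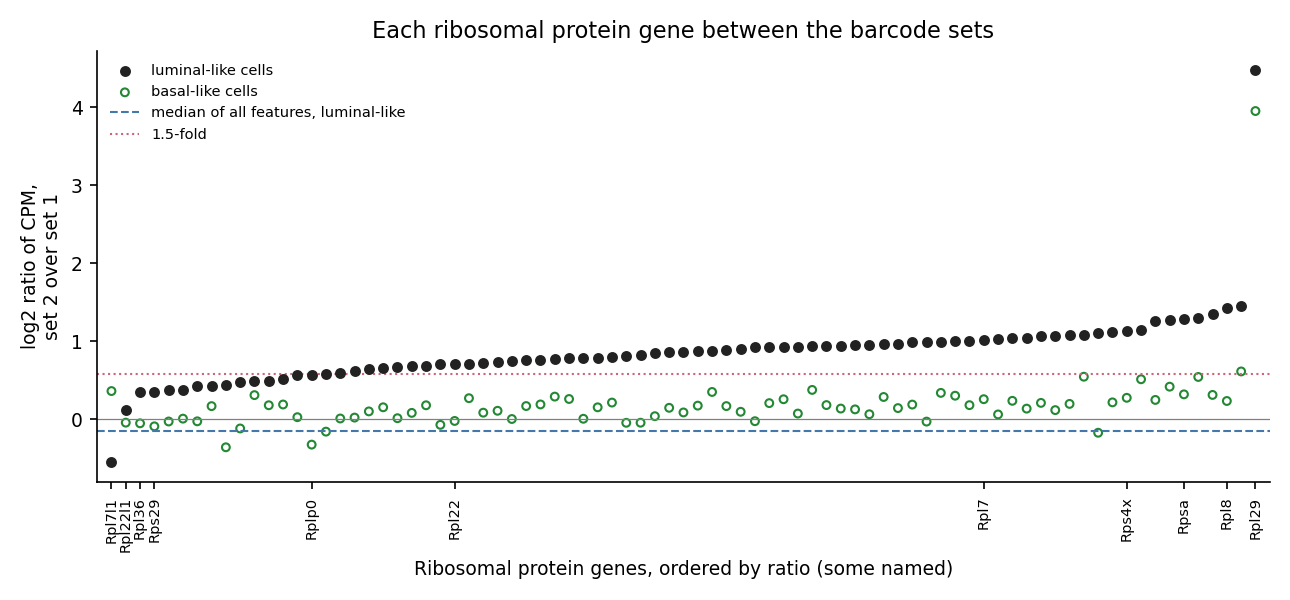
Log2 ratio of CPM in set 2 over set 1 (y axis) for each of the 81 RP genes with at least 50 CPM, ordered by the ratio in luminal-like cells (filled points; some genes are named on the x axis), with basal-like cells as open circles. The dashed line is the median of all features in luminal-like cells (-0.15) and the dotted line marks 1.5-fold. Rpl29 stood apart at 4.47 and Rpl7l1 was the only gene below 0 in luminal-like cells.

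Rpl8 and Rpsa were among the genes that followed Rpl29. Rpl8, a core protein of the large subunit, had 2227 CPM among the luminal-like cells of set 1 and 5966 CPM among those of set 2, a log2 ratio of 1.42 (interval 1.42 to 1.43). Rpsa, of the small subunit, was at 2442 and 5961 CPM (log2 ratio 1.29). Among basal-like cells both were also higher in set 2, by log2 ratios of 0.23 and 0.32.

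The lowest ratios were those of Rpl7l1, Rpl22l1, Rpl36 and Rps29. Rpl7l1 was at 93.3 CPM in set 1 and 63.6 CPM in set 2 (log2 ratio -0.55, interval -0.59 to -0.51). Rpl22l1, the paralogue of Rpl22, was at 560 and 607 CPM (log2 ratio 0.12), while Rpl22 itself was at 509 and 834 CPM. Rpl36 was at 485 and 614 CPM (log2 ratio 0.34), and Rps29, one of the smallest ribosomal proteins, at 790 and 1008 CPM (log2 ratio 0.35). Rpl7, the partner of Rpl7l1, was at 2283 and 4626 CPM. The paralogue Rps27l was not among the lowest, with a log2 ratio of 0.76. By the letters around the start, the median luminal-like ratio was 0.79 for the 34 genes with a run of 8 or more C or T. It was 0.83 for the 26 genes without one that had a ratio.

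Rpl29 was the one RP gene whose share of the RP UMIs differed by over 1.5-fold between the sets in all 4 classes compared. It encodes a small, basic protein on the surface of the large subunit and lies at chr9:106428889-106431568 (GRCm38.p6). In set 1 it stood at 46.9 CPM in luminal-like, 52.7 in basal-like, 54.8 in lymphoid-like, 24.98 in fibroblast-like and 41.6 CPM in myeloid-like cells. In set 2 the levels were 1039 CPM in luminal-like, 813 in basal-like, 466 in fibroblast-like, 413 in myeloid-like and 634 CPM in endothelial-like cells. Each of these levels of set 2 lay above each of those of set 1.

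As a share of the RP UMIs, so that the change of the whole group drops out, Rpl29 was higher in set 2 by log2 ratios of 3.57 in luminal-like, 3.78 in basal-like, 4.01 in fibroblast-like and 3.66 in myeloid-like cells. Within a set the level of mGFP went with no such difference: in set 1 Rpl29 was at 46.5 CPM in luminal-like cells without mGFP and at 52.2 CPM in those rich in it, and in set 2 it was at 832 and 1045 CPM in cells poor and rich in it. Among the 1623 features that reached 50 CPM on 1 side in each of these 4 classes, 2 were higher in set 2 by over 8-fold in all 4, Rpl29 and the predicted gene Gm10260, and none was lower. This criterion was chosen after the values were seen. What lies behind the difference was not tested.

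**Figure D3:**
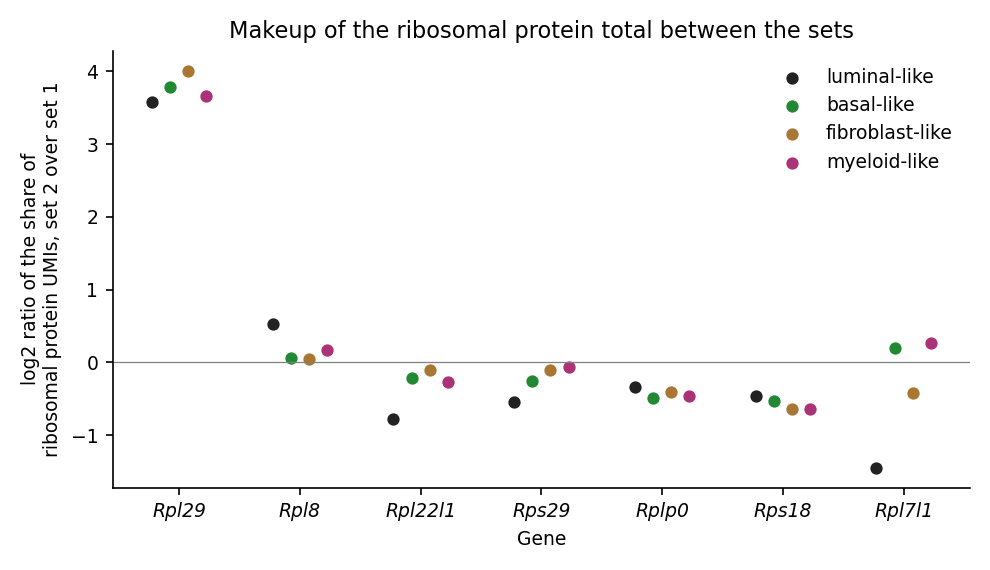
Log2 ratio, set 2 over set 1, of a gene's share of all RP UMIs (y axis) for 7 RP genes (x axis) in 4 classes (colours). Rpl29 lay between 3.57 and 4.01 in the 4 classes, Rplp0 and Rps18 below 0 in all 4, and Rpl7l1 on both sides of 0.

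Smaller shifts of the makeup also recurred. On the same scale Rplp0 lay below 0 in luminal-like, basal-like, fibroblast-like and myeloid-like cells, and so did Rps18, a small-subunit head protein, at -0.46, -0.53, -0.64 and -0.64. Rpl7l1 had no common direction, with -1.45 in luminal-like and 0.19 in basal-like cells. The sign of Rplp0 depended on the scale, since relative to all UMIs it was higher in set 2 for luminal-like cells, at 6030 against 4079 CPM.

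Within set 1, RP genes took a larger share of the UMIs of basal-like than of luminal-like cells, with a log2 ratio of 0.56 (interval 0.55 to 0.56), while the median RP count was lower, 1836 UMIs in a basal-like and 3088 in a luminal-like cell. Of the 81 genes, 33 were higher by over 1.5-fold in basal-like cells and none lower, where 23% of all features were higher and 29.8% lower. Rpl8 was at 2227 CPM in luminal-like and 4468 CPM in basal-like cells (log2 ratio 1.005), and Rps19, a small-subunit head protein whose human gene is mutated in Diamond-Blackfan anaemia, at 1162 and 2319 CPM (log2 ratio 0.996). Rps3 and Rpl13 followed at 0.87 each. Rps27l, the p53-responsive paralogue of Rps27, went the other way with 247 and 195 CPM (log2 ratio -0.35), and Rpl10, Rpl41 and Rpl7l1 also lay below 0. The median of the RP genes was 0.51 beside 0.00 for all features.

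Within set 2 the same comparison had the opposite sign, at -0.17 (-0.18 to -0.17). Here 2 of 81 genes were higher and 5 lower by over 1.5-fold in basal-like cells, with 34.7% of all features higher and 32.1% lower, and the median was -0.21 beside 0.08 for all features. Rps27 (706 CPM in luminal-like and 1062 CPM in basal-like cells) and Rpl7l1 (63.6 and 96.6 CPM) were the pair above 1.5-fold. Rps27l was again lower in basal-like cells, with 420 and 222 CPM (log2 ratio -0.92). The luminal-like share was 11.4 and 21.3% in the sets, the basal-like share 16.8 and 18.9%. The difference between the ratios of the sets was not tested.

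Lymphoid-like cells of set 1 held a larger RP share than luminal-like cells, with a log2 ratio of 0.66 (interval 0.66 to 0.67). Their median depth was 3628 UMIs against 28344, and their median RP count was 621 UMIs a cell. Of the 81 genes, 45 were higher and 2 lower by over 1.5-fold, where 41.6% of all features were higher and 29% lower, so a higher level was common among all features too. Rpsa, which also serves as a laminin receptor at the cell surface, was at 2442 CPM in luminal-like and 6775 CPM in lymphoid-like cells (log2 ratio 1.47), and Rps15a at 986 and 2698 CPM (log2 ratio 1.45). Rpl13a and Rpl12 followed at 1.37 and 1.20. Rps27l was the strongest in the other direction, with 247 CPM in luminal-like and 62.9 CPM in lymphoid-like cells (log2 ratio -1.98, interval -2.17 to -1.79).

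Across all classes Rps27l and Rpl7l1 did not follow the group. Rps27l was highest in luminal-like cells of set 2 (420 CPM) and at 264 CPM in myeloid-like cells of set 1, and was low in fibroblast-like cells (74.9 and 114 CPM). Its partner Rps27 was instead higher in basal-like cells (945 and 1062 CPM) and lymphoid-like cells (1084 CPM) than in luminal-like cells (525 and 706 CPM). Rps27 and Rps27l thus had opposite orders between luminal-like and lymphoid-like cells. Over the 10 sums of a class and a set with at least 50 cells, 72 of the 81 genes had a Pearson r of at least 0.8 with the RP total on the log2(CPM + 1) scale, where 1.24% of other features did. The lowest r were those of Rpl7l1 (-0.01), Rps27l (0.18), Rpl29 (0.23) and Rps29 (0.41). These 10 points share 2 libraries, and a gene of the group is part of the total, so r is a description only.

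The reporter gives a split by lineage within a set. The feature EGFP, taken as mGFP from its name, had a median of 97.8 UMIs per 10000 in luminal-like cells of set 2 and 0.207 in those of set 1. In set 2 the median was 2.93 in myeloid-like, 3.13 in fibroblast-like and 2.46 in endothelial-like cells and 6.99 in the 20 lymphoid-like cells, and in set 1 it was 0 in each of these classes, so a value of a few UMIs in set 2 also occurred outside the epithelium. Cells with 10 or more were called mGFP-high.

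In luminal-like cells of set 1 the RP share was 10.8% in the 1491 cells without an EGFP UMI and 12.6% in the 575 mGFP-high cells, a log2 ratio of 0.23. No gene passed 1.5-fold in either direction, where 6.49% of all features were higher and 9.99% lower. The median was 0.18 beside -0.17 for all features. Of the 81 genes 72 lay above 0, where most features lay below 0 by their median. The higher share of the group by itself moves most of its genes that way. Rps4x, the X-linked small-subunit protein, had the highest ratio with 2757 and 3695 CPM (log2 ratio 0.42). Rpl7l1 had the lowest with 99.6 and 76.9 CPM (log2 ratio -0.37). Makeup differed with the reporter too: 73 of the 575 mGFP-high cells were led by Krt6a and Clu. So were 1044 of the cells under 10 EGFP UMIs per 10000, which were the 1491 without an EGFP UMI and 1149 others. The ratio of 0.23 leaves out those 1149. In cells under 10 and mGFP-high cells the shares were 10.2 and 10.7% among Krt6a and Clu cells and 12.3 and 12.9% among proximal cells. In Msmb cells they were 11.2 and 12.3%, and in Tgm4 cells 12.1 and 11.3% (29 mGFP-high cells). The part of these programmes in the ratio was not tested. In basal-like cells of set 1 the shares were 16.7% (742 cells) and 16.9% (234 cells), a log2 ratio of 0.02 that turned to -0.011 when mGFP-high was set at 50 or more, and no gene passed 1.5-fold, where 4.78% of all features were higher and 5.49% lower.

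In luminal-like cells of set 2 the RP share was 15.6% in the 283 cells under 10 EGFP UMIs per 10000 and 21.4% in the 7785 mGFP-high cells, a log2 ratio of 0.46 (interval 0.45 to 0.46). Of the 81 genes 17 were higher by over 1.5-fold and none lower, where 20.3% of all features were higher and 24.5% lower, and the median was 0.39 beside -0.03 for all features. Rpl8 (2824 and 6066 CPM, log2 ratio 1.10), Rps3 (3005 and 5716 CPM, log2 ratio 0.93), Rps15a and Rpsa led, and Rpl7l1, Rpl36, Rpl38 and Rpl10 lay below 0. The count of genes past 1.5-fold was thus near the background. Of the 81 genes 74 lay above 0, where most features lay below 0 by their median. A higher share of the whole group by itself moves most of its genes above 0. The sides also differed in makeup, since 171 of the 283 cells under 10 were led by Tgm4, as were 158 of the 7785 mGFP-high cells, and within the Tgm4 cells the shares were 17.3 and 18.2%. The part of that makeup in the ratio was not tested. In basal-like cells of set 2 the share went the other way, from 19.8% (83 cells) to 17.9% (64 cells), a log2 ratio of -0.15.

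**Figure D4:**
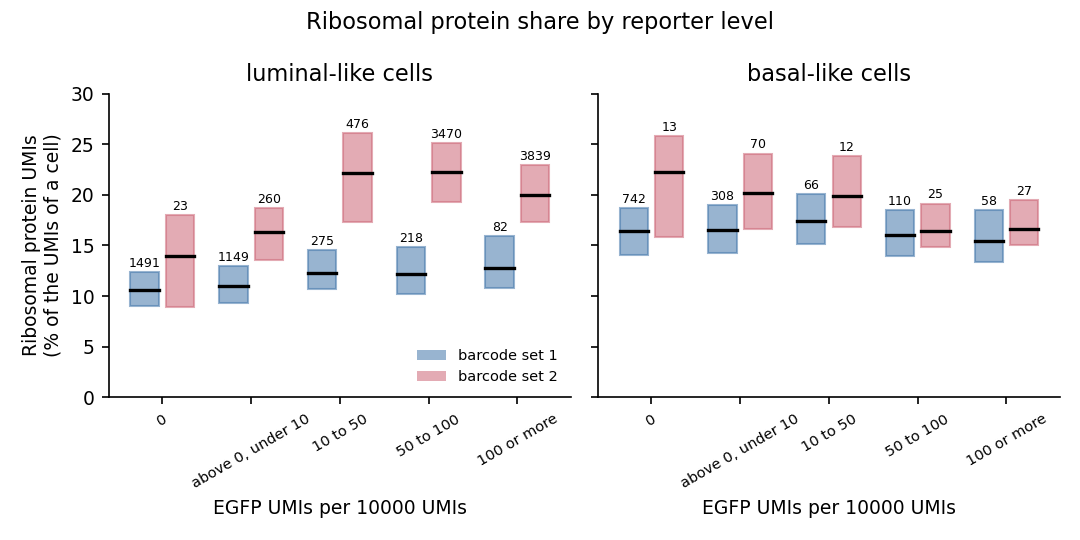
Share of a cell's UMIs in the RP genes (percent, y axis) by EGFP UMIs per 10000 UMIs (x axis) in luminal-like (left) and basal-like cells (right) of set 1 and set 2 (colours). Boxes span the quartiles over cells, black lines are medians and the numbers count cells. In luminal-like cells the 2 lowest levels of EGFP had the lowest medians in each set, and at each level set 2 lay above set 1.

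The share did not follow the reporter in one direction, and over single luminal-like cells the Spearman rho of the RP share with the EGFP level was 0.19 in set 1 and -0.19 in set 2. In luminal-like cells of set 2 the share was 15.7% above 0 and under 10 EGFP UMIs per 10000 (260 cells), 20.6% from 10 to 50 (476 cells), 22.7% from 50 to 100 (3470 cells) and 20.3% at 100 or more (3839 cells). In set 1 it was 11.5, 12.6, 12.5 and 12.8% in the same 4 ranges. At 100 or more the RP share of luminal-like cells thus differed between the sets, with 12.8% in the 82 cells of set 1. That range has no upper limit, and reporter levels within it were not compared.

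Luminal-like cells were split further by the gene programme that led in them. In set 2 the share was highest, 22.5%, in the 1224 cells led by alpha-defensins, small antimicrobial peptides, and 21.9% in the 4352 cells with no leading programme. Cells led by seminal vesicle secretory genes held 20.6% (376 cells), those led by Mt4 and Gulo 20.4% (1059 cells) and those led by cell cycle genes 20.2% (334 cells). Proliferating cells, which make ribosomes for both daughters, did not have the highest share. Their median RP count, 5104.5 UMIs, was the highest among the programmes of set 2 with at least 50 cells. So was their median depth, 26991 UMIs.

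The lowest shares of set 2 were found in cells with programmes that set 1 had as well. Cells led by Krt6a and Clu held 17.8% (271 cells), those led by Tgm4, a transglutaminase of the prostatic secretion, 17.7% (329 cells) and proximal cells 17.7% (107 cells). In set 1 these programmes held 10.3% (1117 cells), 12.02% (397 cells) and 12.5% (340 cells), and cells led by Msmb, a secretory protein, held 11.5% (448 cells). Every programme of set 2 with at least 50 cells lay above every such programme of set 1. The alpha-defensin, seminal vesicle and Mt4 programmes had no cell in set 1.

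**Figure D5:**
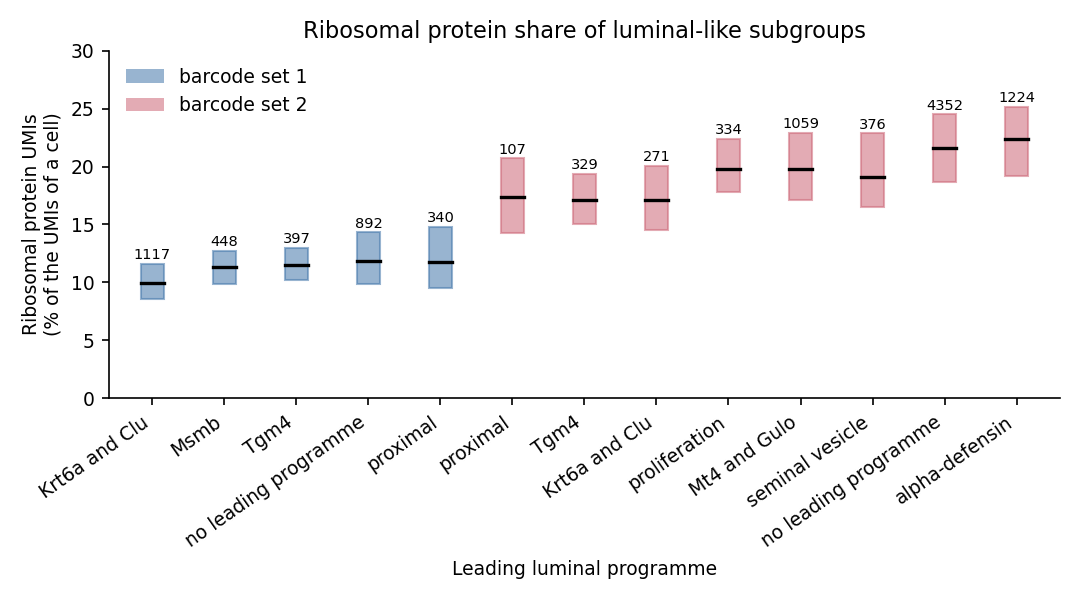
Share of a cell's UMIs in the RP genes (percent, y axis) in luminal-like cells by leading gene programme (x axis) and barcode set (colour), for groups of at least 50 cells, ordered by the share of the summed UMIs within a set. Boxes span the quartiles over cells, black lines are medians and the numbers count cells. The shares of the summed UMIs ran from 10.3 to 12.5% among groups of set 1 and from 17.7 to 22.5% among those of set 2.

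Other parts of the protein-making machinery did not move as one with the RP genes. Of 36 listed translation factors 35 passed 50 CPM, and 16 were higher and 5 lower by over 1.5-fold in luminal-like cells of set 2 than of set 1, where 19.2% of all features were higher and 29.9% lower. The median log2 ratio of the list was 0.50 beside -0.15 for all features. The elongation factors were among the higher ones: Eef1a1, which brings the transfer RNA, was at 7388 and 13314 CPM, Eef1b2, its exchange factor, at 1294 and 2972 CPM and Eef2, which moves the ribosome along, at 1383 and 2811 CPM. Initiation factors went both ways. Lower in set 2 were among others the helicase Eif4a1 (773 and 372 CPM), Eif2s1 (137 and 65.5 CPM) and Eif6 (619 and 280 CPM), which keeps free large subunits apart from small ones. Higher were among others Eif3h (499 and 1008 CPM) and Eif3m (230 and 380 CPM). Eef1b2, Gnb2l1 (the ribosome-bound scaffold RACK1) and Eif3m had the 3 highest r among named genes with the RP total over the 10 sums (0.97, 0.94 and 0.94), with Gm9493 at 0.94 between them.

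Genes that assemble ribosomes did not share the higher level of the RP genes. Of 28 listed biogenesis genes 19 passed 50 CPM, and in luminal-like cells 1 was higher (Bop1, 30.7 and 52.9 CPM) and 4 were lower in set 2, with a median log2 ratio of -0.35, where 19.2% of all features were higher and 29.9% lower, so few of the list passed in either direction. Those lower were Gar1 (112 and 46.6 CPM) and Nop56 (168 and 73.9 CPM), which guide the modification of ribosomal RNA, Gnl3 and Mybbp1a. Of the 12 listed regulators 5 passed and 2 were higher, Maf1, a repressor of RNA polymerase III (30.9 and 88.4 CPM), and Mdm2, while Myc was at 200 and 272 CPM (log2 ratio 0.44). Of 77 mitochondrial ribosomal protein genes 45 passed, 10 were higher and 1 lower, with a median of 0.26, and the share that was higher lay near the 19.2% of all features. In basal-like against luminal-like cells, biogenesis genes were instead higher in each set, 11 of 21 in set 1 and 17 of 22 in set 2, where 1 was lower, with medians of 0.63 and 1.23, beside 23 and 34.7% of all features that were higher. Npm1, a nucleolar chaperone, was at 896 CPM in luminal-like and 1993 CPM in basal-like cells of set 1.

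Cell by cell, the RP share went with the translation factors more closely than with the other lists. The lists differ in level, with 37344 CPM for the translation factors and 3892 CPM for the biogenesis list in luminal-like cells of set 1. Counting noise pulls rho toward 0 for a sparser list or a single gene such as Myc. Its part in these differences was not tested. In luminal-like cells the Spearman rho of the RP share was 0.61 in set 1 and 0.75 in set 2 with the share of the translation factor list, and 0.10 and 0.09 with the biogenesis list. It was -0.07 and -0.01 with Myc and -0.02 and 0.04 with the total UMIs. In basal-like cells of the sets it was 0.73 and 0.70 with the translation factors and -0.17 and -0.16 with the biogenesis list. With Myc it was -0.11 and -0.25 there, and with the total UMIs 0.11 and -0.23. Cells of a class share 1 library and their shares add up to a whole, so these values are a description with no test.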

How the data were processed

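Per the labels, dissociated PIN and PCa tissue was profiled with 10x Genomics 3' v2 chemistry, and the submitters' processing notes name Cell Ranger 3.1.0 and mm10. The authors added the mGFP and hARtg sequences to the genome and filtered empty droplets, multiplets and mitochondria-rich cells, and how reads shared between copies of a gene were counted is not given in the sources used here. Where counts had been assumed in planning, the table deposited by the authors holds the natural log of 1 plus a gene's UMIs per 10000 UMIs of its cell. Dividing by the value of 1 UMI gave whole numbers for 100% of the values within 0.001, and those UMIs were summed over cells. By its name alone, EGFP was read as mGFP, and likewise ARQ as hARtg.

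The ending of a barcode was used as a technical split, since the labels tie neither ending to a tissue. Scrublet, run on each set in scanpy 1.11.5, scored doublets (expected rate 6%, limit 0.25 set after the scores were seen), and 155 and 175 cells were left out. A cell took the class whose markers scored highest (score at least 0.25, lead at least 0.1, at least 3 markers), and a luminal-like cell took a programme at a score of 0.6 and a lead of 0.1. Groups under 50 cells were not compared, so in set 2, where 23 luminal-like cells had no EGFP UMI, mGFP-high cells were set against all cells under 10 per 10000. That split and the depth bins were added after the data were seen. With 1 library a group, a feature with at least 50 CPM on either side was counted as higher or lower past 1.5-fold, with no test. A sum under 3 UMIs was set to 3 UMIs in a ratio. The step was tested on simulated data. Comparisons within a set share their luminal-like cells, and those between sets share both libraries.

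Genes were named by rule: the paralogues and their partners, the 5 highest levels, the 4 highest and lowest in each comparison, the 10 features most like the RP total (Pearson r), and fixed pathway lists. Others named were chosen after their values were seen. The genes, lists and comparisons were chosen with earlier results of these data known. All 82 genes matched RefSeq (GRCm38.p6), and 21 had no promoter entry. Intervals are at the 95% level. Some genes are not reported here.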

Additional observations from a re-analysis of the deposited data

Results flagged for a closer look

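Opposite directions between groups drew attention to 3 comparisons of the RP share, and none of these differences was tested, since each rests on 1 library a group. The basal-like over luminal-like log2 ratio was 0.56 in set 1 and -0.17 in set 2. In set 2 the ratio of mGFP-high over mGFP-low cells was 0.46 in luminal-like and -0.15 in basal-like cells, the latter from 64 and 83 cells. The ratio of set 2 over set 1 was 0.90 in luminal-like and -0.34 in myeloid-like cells, the latter from 210 and 60 cells. In myeloid-like cells the markers of the basal class summed to 303 CPM in set 1 and 38.0 CPM in set 2, and their part in the result was not tested.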

How the results depend on the processing

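No paired analysis was possible because there was 1 library a group, and for the same reason no library could be left out. Of 306 alternative values 1 changed its sign, 194 moved beyond their counting interval, which is narrow at this depth, and 111 stayed within it or within 1.5 times a count. The reversed value was the ratio of mGFP-high over EGFP-free basal-like cells of set 1, which was -0.011 with mGFP-high set at 50 or more per 10000. Depth limits the classes under 50 cells and features under 50 CPM, and cell classes rest on markers alone. The denominator without the 100 most abundant other genes was added after the data were seen.

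RP shares are given for luminal-like set 1, luminal-like set 2, basal-like set 1 and basal-like set 2, in this order. They were 11.5, 20.9, 16.6 and 19.5% with every cell weighing the same, 11.9, 22.5, 17.4 and 19.8% without mitochondrially encoded genes, 12.6, 23.7, 18.9 and 21.4% without other genes over 1% of UMIs, and 16.6, 29.4, 22.1 and 24.99% without the 100 most abundant other genes. With ribosomal protein genes outside the symbol rule added they were 11.6, 21.5, 17.0 and 19.1%, and without the paralogues 11.3, 21.1, 16.7 and 18.8%. With doublets kept the luminal-like shares were 11.4 and 21.2%. The looser class gate gave 11.4% in luminal-like set 1 and 19.0% in basal-like set 2, the stricter gate 11.4% there and 16.7 and 18.5% in the basal-like sets, and cells with 5000 or more UMIs 11.4 and 18.5%.

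The luminal-like log2 ratio of set 2 over set 1 was 0.87 with every cell weighing the same, 0.91 without mitochondrially encoded genes and likewise 0.91 without other genes over 1% of UMIs, 0.83 without the 100 most abundant, 0.89 with the added members, with doublets or with the looser gate, and 0.90 without paralogues, with the stricter gate or from 5000 UMIs. The basal-like ratio was 0.23, 0.19 and 0.18 under the first 3 of these, 0.18 and 0.15 with the looser and stricter gate and 0.14 from 5000 UMIs. Basal-like over luminal-like in set 1 was 0.53, 0.54, 0.59 and 0.42 under the first 4, 0.55 with added members, doublets or the looser gate and 0.56 without paralogues or with the stricter gate. In set 2 it was -0.10, -0.18, -0.14 and -0.23 under the first 4, -0.16 and -0.20 with the looser and stricter gate and -0.20 from 5000 UMIs. Lymphoid-like over luminal-like was 0.57, 0.65, 0.64 and 0.40, then 0.66 with added members or doublets, 0.67 without paralogues and 0.78 from 5000 UMIs.

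The mGFP ratio of luminal-like set 1 was 0.26, 0.24, 0.25 and 0.26 under the first 4, 0.23 and 0.21 with the looser and stricter gate and 0.13 with mGFP-high set at 1 UMI. In basal-like set 1 it was 0.0099 with cells weighing the same, 0.041 without genes over 1%, 0.079 without the 100 most abundant, and 0.024 and 0.0061 with the looser and stricter gate. In luminal-like set 2 it was 0.42, 0.46, 0.50 and 0.37 under the first 4, 0.45 with added members or the looser gate, 0.48 with the stricter gate and 0.46 from 5000 UMIs.

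With the subgroup gate at 0.5 the shares of set 2 were 22.7% (alpha-defensin), 20.8% (seminal vesicle), 20.6% (Mt4 and Gulo), 20.4% (proliferation), 18.5% (Krt6a and Clu), 17.9% (Tgm4), 17.6% (proximal) and 21.8% (none), and those of set 1 were 10.3% (Krt6a and Clu), 11.5% (Msmb), 12.8% (proximal) and 12.1% (none). At 0.7 they were 20.3% (seminal vesicle), 20.04% (Mt4 and Gulo), 19.9% (proliferation), 17.2% (Krt6a and Clu), 17.7% (Tgm4), 17.3% (proximal) and 21.8% (none) in set 2, and 10.1% (Krt6a and Clu), 11.99% (Tgm4), 11.4% (Msmb), 12.1% (proximal) and 12.4% (none) in set 1.

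Scaled by RP UMIs alone, which by construction removes the change of the group, 1 gene was higher and 2 were lower between the luminal-like sets, and 1 was higher between the basal-like sets. Basal-like over luminal-like gave 0 higher and 4 lower in set 1, and 3 higher and 1 lower in set 2. Lymphoid-like over luminal-like gave 3 higher and 7 lower. The mGFP comparison gave 1 lower in luminal-like set 1, and 1 higher and 3 lower in luminal-like set 2. No share over all features is given on this scale, so these counts are a description only.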
